A study of Mus musculus with 140 samples.

Results

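Malat1 and Neat1, long noncoding RNAs that lie next to each other on mouse chromosome 19, were examined in the eCLIP cluster lists of 70 immunoprecipitation (IP) libraries. eCLIP maps the RNA stretches that come down with a protein or a modified base. Clusters belonged to a gene when their midpoint and strand fell inside it (GENCODE vM21, mm10), and 5203 of 13239113 listed clusters did so, 4346 on Malat1 and 857 on Neat1. A cluster counted as enriched when its p for IP over input was 0.001 or less. By that rule 1631 clusters on Malat1 and 439 on Neat1 were enriched.

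Malat1 is an abundant nuclear RNA that gathers in nuclear speckles and is linked to the control of splicing. Neat1 is the scaffold of paraspeckles, nuclear bodies that hold RNA-binding proteins. Its short isoform is polyadenylated and shares its whole length with the start of the long isoform, which ends in a triple helix and is the form that builds the paraspeckle. TDP-43 is a nuclear protein that binds UG-rich RNA, controls splicing and is lost from the nucleus in motor neuron disease, and both transcripts are known to bind it in brain. N6-methyladenosine (m6A) is a base modification placed mostly at GGAC-like sequences, and Malat1 is a well-known carrier.

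TDP-43 and m6A were profiled in the cortex and striatum of non-transgenic (NT) mice and of R6/2 mice (R62 in the labels), whose transgene encodes exon 1 of human huntingtin with an expanded CAG repeat. All these mice were 3 months old and untreated, on a mixed B6CBA background, with 4 males and 4 females per genotype, region and assay. A separate m6A experiment used C57Bl/6J males, a different background, with 3 libraries per treatment. PBS or 500 ug of a TDP-43 antisense oligonucleotide (ASO) was injected into the cerebral ventricle at 5 weeks, and tissue was taken 2 weeks later. The sample labels name cortex for it and the treatment protocol names striatum. m6A eCLIP started from RNA selected on poly-dT beads, and TDP-43 eCLIP from crosslinked tissue. All tissue was bulk, so fewer cells of a type and less RNA per cell cannot be told apart.

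The libraries listed between 133211 and 260739 clusters, of which 4929 to 99049 were enriched. Read numbers were not used here, and the depth behind a cluster is unknown. A group of TDP-43 libraries stood apart: listed clusters lay in introns for 18.8 to 47.4% in R6/2 striatum, with 5 of 8 libraries (all 4 females and male 4) at 30% or more, against 16.1 to 25.7% in NT striatum. In TDP-43 cortex, 3 of 8 R6/2 libraries reached 30% and no NT library did. Striatal projection neuron markers had 75 to 171 enriched m6A clusters per library in striatum and 27 to 52 in cortex, and cortical excitatory neuron markers 35 to 72 and 91 to 115, so the region labels held. In the ASO experiment the cortical markers had 112 to 120 and the striatal markers 68 to 87.

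Malat1 (ENSMUSG00000092341.3, lincRNA) spans chr19:5795690-5802672 on the minus strand, 6983 nt. Neat1 (ENSMUSG00000092274.3, lincRNA) spans chr19:5824708-5845478 on the minus strand, 20771 nt, and its short isoform ends 3172 nt from the 5′ end of the gene. Positions here are counted in nt from the 5′ end of each gene. A site is a stretch that lay under an enriched cluster in 4 or more of 16 libraries, or in 3 or more of the 6 ASO and PBS libraries.

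The sequences below are the stretches on Malat1 on which the results turn, in transcript orientation on the minus strand of mm10 (GRCm38). The TDP-43 sites are those present in most libraries and the site called in R6/2 striatum, with TGTGT and GTGTG in capitals. They lie at chr19:5798903-5799004, chr19:5799037-5799098 and chr19:5797703-5797773.
Malat1 TDP-43 site of cortex, nt 3669 to 3770: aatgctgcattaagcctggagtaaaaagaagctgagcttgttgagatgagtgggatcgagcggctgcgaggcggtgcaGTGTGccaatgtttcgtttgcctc
Malat1 TDP-43 site called in R6/2 striatum, nt 3575 to 3636: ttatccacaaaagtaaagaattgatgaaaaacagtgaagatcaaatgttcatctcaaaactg
Malat1 TDP-43 site of striatum, nt 4900 to 4970: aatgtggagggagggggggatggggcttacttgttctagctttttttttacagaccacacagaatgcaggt

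The m6A stretches on Malat1 shown here are the site at the 5′ end, the window of highest coverage in the long second-kilobase site, and the site that holds the called TDP-43 site, with GGAC in capitals. They lie at chr19:5802522-5802672, chr19:5801401-5801501 and chr19:5798979-5799127 on the minus strand.
Malat1 m6A site of cortex, nt 1 to 151: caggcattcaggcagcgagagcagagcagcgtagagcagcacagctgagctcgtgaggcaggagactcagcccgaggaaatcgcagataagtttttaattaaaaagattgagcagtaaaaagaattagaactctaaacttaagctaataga
Malat1 m6A window of cortex, nt 1172 to 1272: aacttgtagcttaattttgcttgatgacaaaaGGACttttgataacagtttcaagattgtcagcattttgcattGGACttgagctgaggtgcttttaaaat
Malat1 m6A site of cortex, nt 3546 to 3694: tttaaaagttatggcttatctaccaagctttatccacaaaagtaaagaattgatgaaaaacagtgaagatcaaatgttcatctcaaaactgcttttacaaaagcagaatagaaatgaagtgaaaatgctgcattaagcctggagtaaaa

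For Neat1 the window of highest coverage in its longest m6A site and the m6A site next to it are shown, at chr19:5843952-5844052 and chr19:5843288-5843455 on the minus strand, again with GGAC in capitals.
Neat1 m6A window of cortex, nt 1427 to 1527: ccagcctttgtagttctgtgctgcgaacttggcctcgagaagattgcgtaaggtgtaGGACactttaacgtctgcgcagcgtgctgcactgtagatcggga
Neat1 m6A site of cortex, nt 2024 to 2191: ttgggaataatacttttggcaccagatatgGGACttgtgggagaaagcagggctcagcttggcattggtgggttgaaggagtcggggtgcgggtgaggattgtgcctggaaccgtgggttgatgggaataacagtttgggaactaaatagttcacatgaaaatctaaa

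Motifs were searched on the transcript strand only, in a window reaching 50 bases to either side of the most covered base of each site. TGTGT was in the window of 6 of 18 Malat1 TDP-43 sites of cortex and in 14.0% of all 37155 TDP-43 sites of cortex, and GTGTG in 4 of 18 and 16.1%. Windows of neighbouring sites overlap, so the same motif can count for more than 1 site. The sites at nt 5053 to 5097 and nt 5099 to 5123 shared the TGTGT in their windows. The sites at nt 4844 to 4888 and at nt 4890, a single base, shared their TGTGT and GTGTG. The 6 and 4 of 18 are therefore not numbers of separate motifs, and their difference from all sites was not tested. The 2 motifs overlap where TG repeats run on. Both were in the windows of the TDP-43 sites at nt 4844 to 4888 and nt 2919 to 2970, and neither was in the windows of the sites at nt 3566 to 3639 and nt 3669 to 3770, which were present in most cortex libraries. The GTGTG printed above for nt 3669 to 3770 starts at nt 3747, at the edge of that site. GGAC was in the window of 6 of 16 m6A sites of cortex on both genes and in 55.2% of all 37877 m6A sites of cortex, and GGACT, which contains it, in 4 of 16 and 26.5%. The windows of the m6A sites at the 5′ ends of both genes and at nt 3546 to 3694 of Malat1 held no GGAC. The paper uses the wider DRACH motif for m6A (D = A, G or U, R = A or G, H = A, C or U). Its other forms were not searched, so these sites may hold them.

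Enriched m6A lay nearer the 5′ end of Malat1 on average than enriched TDP-43, and both covered parts of the second and the fourth kilobase. TDP-43 covered 13.9% of the second kilobase and 21.1% of the fourth in cortex, and m6A 56.1% and 17.8% (means of 16 libraries). In striatum TDP-43 covered 9.32% and 7.81%. The centre of the enriched bases lay at nt 1660 ± 348 (SD, n = 16 libraries) for m6A in cortex and at nt 3556 ± 386 for TDP-43 (n = 15 with an enriched cluster). In striatum the centres lay at nt 1646 ± 246 for m6A and nt 3801 ± 962 for TDP-43 (14 libraries). The assays differed in both regions (permutation of assay within genotype and sex, 100000 resamples, two-sided, smallest p they can give 1e-05, adjusted over 18 tests p = 1.38e-05). m6A clusters were enriched as far as nt 4854 and TDP-43 clusters as far as nt 6506.

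**Figure D1:**
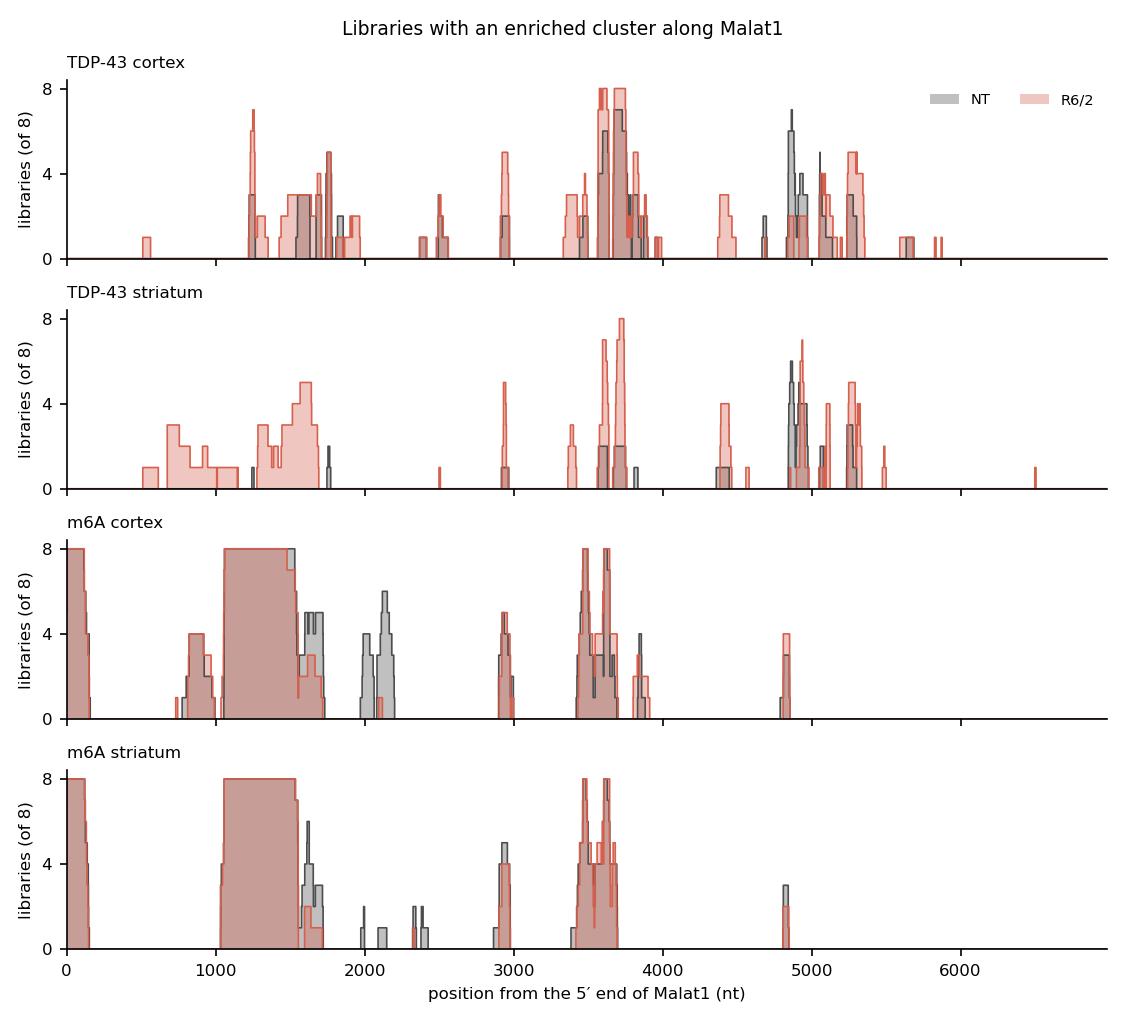
Number of libraries (y axis, of 8 per genotype) with an enriched cluster at each position of Malat1 (x axis, nt from the 5′ end), for NT (grey) and R6/2 (red). m6A libraries share blocks at the 5′ end, in the second kilobase and near nt 3500, while TDP-43 clusters are spread from nt 512 to nt 6506, and in cortex their highest block, in 15 of 16 libraries, lies in the site at nt 3669 to 3770.

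Malat1 had more listed TDP-43 clusters than m6A clusters but fewer enriched ones. In cortex 90.6 ± 10.2 TDP-43 clusters and 47.5 ± 8.04 m6A clusters were listed per library (permutation test, adjusted p = 1.38e-05), and 17.1 ± 17.3 and 30.8 ± 6.96 were enriched (adjusted p = 0.00695; SD, n = 16 each). The listed TDP-43 clusters were below input on average, with a mean log2 fold of -0.72 ± 0.49 in cortex and -0.80 ± 0.71 in striatum. The listed m6A clusters were above it, at 0.98 ± 0.14 and 0.94 ± 0.13. Over all libraries 19.0% of listed TDP-43 clusters on Malat1 were enriched, against 13.1% over all genes, and 1145 of 1789 listed m6A clusters were, against 39.8% over all genes. At the thresholds of the study (p of 0.001 and log2 fold of 3) no library of either region kept a TDP-43 cluster on Malat1. For m6A a mean of 2.56 clusters per library remained in cortex and 2.50 in striatum.

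Every m6A library of the R6/2 series had the same 4 Malat1 sites. They covered nt 1 to 151, nt 1054 to 1554, nt 3433 to 3542 and nt 3546 to 3694 in cortex, and nt 1 to 146, nt 1034 to 1555, nt 3426 to 3541 and nt 3545 to 3695 in striatum. The second kilobase carried most of the signal: 56.1% ± 6.95 of its bases lay under enriched m6A clusters in cortex and 55.0% ± 6.19 in striatum (SD, n = 16 each). Beyond nt 5000 no base did.

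On Neat1, enriched m6A clusters lay within the stretch of the short isoform and enriched TDP-43 clusters were few. Enriched m6A clusters ended at nt 2923 in cortex, nt 3062 in striatum and nt 2923 in the ASO experiment. This stretch is also the start of the long isoform, so the isoforms cannot be told apart there. Beyond it no m6A library listed any cluster, enriched or not. TDP-43 clusters were listed beyond it in 8 of 16 cortex and 10 of 16 striatum libraries. The lists therefore do not show whether the rest of the long isoform carries m6A, and the part of the poly-dT selection was not tested. All 16 cortex and all 16 striatum m6A libraries had an enriched cluster on the site at nt 1363 to 1884 (nt 1354 to 1886 in striatum), where IP over input exceeded the median site by 0.67 in NT and 0.55 in R6/2 cortex on the log2 scale. The sites at nt 2024 to 2191 (15 of 16 libraries), nt 2 to 96 (14 of 16) and nt 2838 to 2918 (13 of 16) followed in cortex, and the site at nt 1025 to 1085 was in 6 of 16 (nt 1024 to 1101 in 12 of 16 in striatum). Gm27533, an annotated small RNA (misc_RNA, chr19:5844286-5844437) on the same strand inside Neat1, overlaps this last site. Reads of Gm27533 and Neat1 cannot be told apart there.

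Of 306 listed TDP-43 clusters on Neat1 only 9 were enriched (2.94%), and no stretch reached 4 libraries in either region. Enriched TDP-43 clusters per library ranged from 0 to 1 in NT cortex, from 0 to 3 in R6/2 cortex and from 0 to 2 in R6/2 striatum, and all 8 NT striatum libraries had 0. An enriched cluster was present in 2 of 8 NT and 1 of 8 R6/2 cortex libraries and in 3 of 8 R6/2 striatum libraries. Neat1 therefore missed the minimum of 2 enriched clusters in 50% of libraries and was not tested for TDP-43 across genes. The listed clusters were above input on average, by 0.34 ± 0.62 in cortex and 0.30 ± 0.50 in striatum on the log2 scale (SD, n = 16 each).

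**Figure D2:**
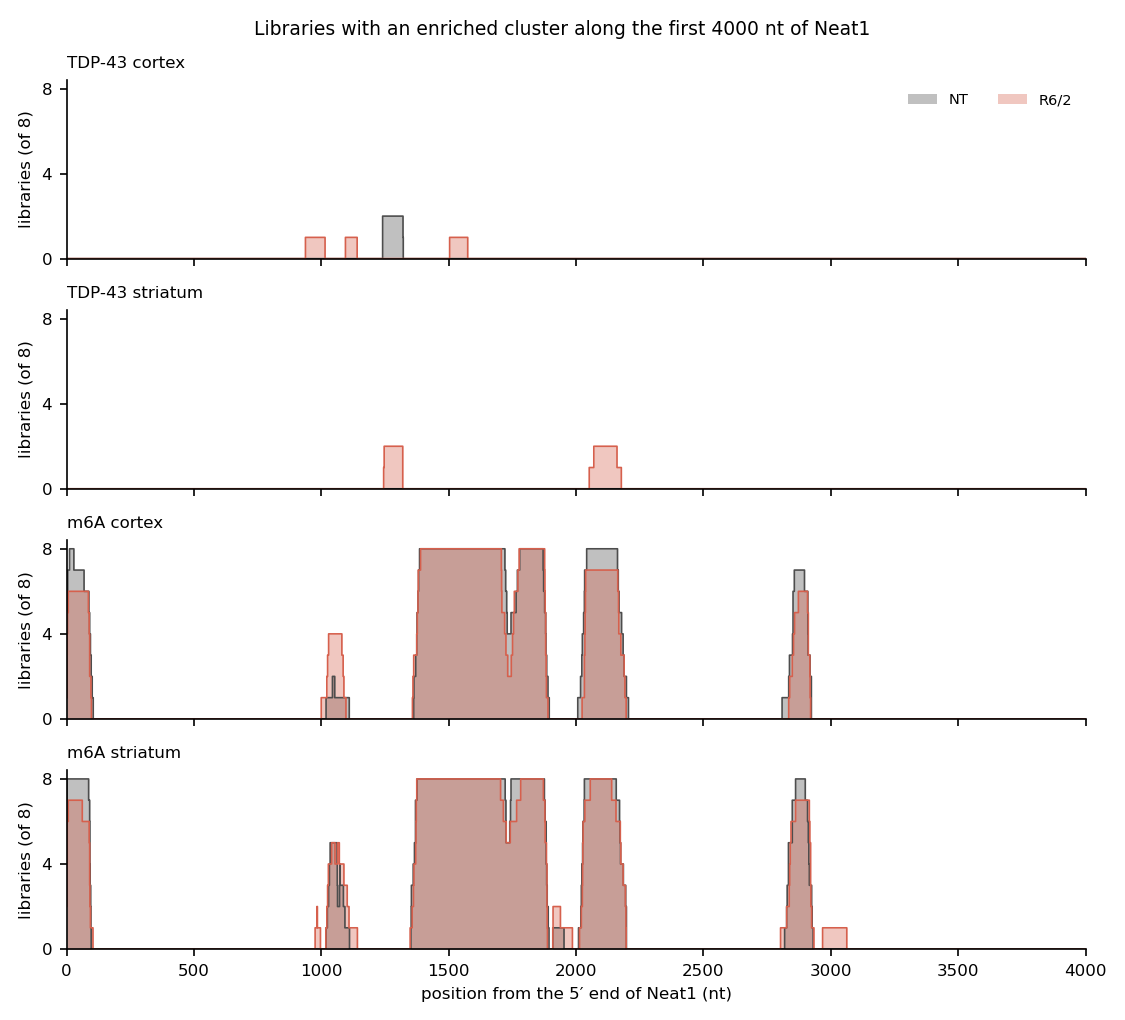
Number of libraries (y axis, of 8 per genotype) with an enriched cluster at each position of the first 4000 nt of Neat1 (x axis, nt from the 5′ end), for NT (grey) and R6/2 (red). m6A blocks end before nt 3172, and 4 of the 5 sites are in 13 or more of 16 libraries, and TDP-43 clusters reach 2 libraries of a genotype at most.

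TDP-43 and m6A sites overlapped on Malat1 and not on Neat1. On Malat1 the TDP-43 sites of both regions covered 955 bases and the m6A sites 1546, and 407 bases were shared, 42.6% of the TDP-43 bases and 26.3% of the m6A bases. The sequence at nt 3566 to 3639, a TDP-43 site in 14 of 16 cortex libraries, lay wholly inside the m6A site at nt 3546 to 3694. Gm27694, an annotated small RNA (misc_RNA, chr19:5799000-5799085) on the same strand inside Malat1, overlaps this stretch, and reads of the 2 genes cannot be told apart there. On Neat1 the m6A sites covered 980 bases and there was no TDP-43 site.

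Cortex and striatum differed in a few values. Neat1 had 8.44 ± 2.31 enriched m6A clusters in cortex and 12.3 ± 3.81 in striatum (SD, n = 16 each; permutation of region within genotype and sex, adjusted over 18 tests p = 0.00528). Malat1 had 15.1% ± 2.32 of its bases under enriched m6A clusters in cortex and 13.2% ± 2.35 in striatum (permutation test, adjusted p = 0.0139), with similar numbers of enriched clusters, 30.8 ± 6.96 and 30.3 ± 5.77. Listed TDP-43 clusters on Malat1 fell from 90.6 ± 10.2 in cortex to 69.2 ± 12.4 in striatum (permutation test, adjusted p = 0.00054), while the enriched ones did not pass the test, 17.1 ± 17.3 against 13.3 ± 17.7 (permutation test, adjusted p = 0.777).

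In the R6/2 comparisons, Malat1 m6A in striatum was the value that passed the test across genes. Enriched m6A clusters on Malat1 numbered 35, 42, 37 and 39 in NT males and 25, 28, 31 and 30 in R6/2 males. They numbered 23, 30, 28 and 33 in NT females and 24, 27, 22 and 30 in R6/2 females. All R6/2 males were below all NT males, and the female groups overlapped.

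After division by size factors the means were 34.2 ± 7.31 in NT and 26.9 ± 5.04 in R6/2 striatum (SD, n = 8 each), a change of -0.33 ± 0.076 (log2, SE), or 0.795-fold (limma, adjusted p = 0.00615). Of 9734 genes tested there, 9.64% were called. The counts before this division, 33.4 ± 6.21 and 27.1 ± 3.23, did not pass the exact permutation within sex (adjusted over 46 tests p = 0.0845). Males alone gave -0.38 (limma, adjusted p = 0.0283) and females alone -0.28 (adjusted p = 0.286), and without the sex term the call was lost (adjusted p = 0.159). Striatal projection neuron markers had 114 to 171 enriched m6A clusters per library in NT and 75 to 114 in R6/2 striatum, and their part in the Malat1 value was not tested.

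Most of the difference lay in the second kilobase, as a description by kilobase without a test. There 23.5 ± 3.16 clusters were enriched in NT and 18.5 ± 1.93 in R6/2 striatum, while the first kilobase had 3.13 ± 0.64 and 3.25 ± 1.04 and the fourth 4.38 ± 2.39 and 4.25 ± 1.67 (SD, n = 8 each). The bases covered moved less: 57.5% of that kilobase lay under enriched clusters in NT and 52.6% in R6/2. The third kilobase went from 2.00 ± 1.20 to 0.88 ± 0.83 enriched clusters. Over the whole transcript 13.8% ± 2.81 and 12.5% ± 1.70 of the bases were covered (exact permutation within sex, 4900 labelings, adjusted over 46 tests p = 0.228). Listed clusters fell from 55.9 ± 6.92 to 43.5 ± 2.27 (exact permutation, adjusted p = 0.0376) and their mean log2 fold rose from 0.87 ± 0.089 to 1.02 ± 0.12 (exact permutation, adjusted p = 0.0188). The bases under listed clusters fell from 26.0% ± 1.53 to 24.2% ± 1.74 (exact permutation, adjusted over 26 tests p = 0.0318).

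No m6A site of striatum on Malat1 (8 sites, 7 tested) or Neat1 (5 sites) was called for a change in enrichment with genotype (limma on IP over input, 0.42% of 34298 sites called). At nt 1034 to 1555 of Malat1 the difference was 0.02 ± 0.048 (log2, SE; adjusted p = 0.948), and at nt 1354 to 1886 of Neat1 it was 0.05 ± 0.064 (adjusted p = 0.864). Site presence was not called either, with 0.0% of 40994 sites called and 1222 at an unadjusted exact permutation p under 0.05.

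In cortex Malat1 m6A did not pass the test. Enriched clusters per library had a lowest value of 24, a median of 31.5 and a highest of 43 in NT, and 21, 30 and 40 in R6/2, so the genotypes overlapped. The change was -0.25 ± 0.078 (log2, SE; limma, adjusted p = 0.0567, 6.17% of 9071 genes called). It passed without NT male 1 (-0.31, adjusted p = 0.00836) or without NT female 1 (-0.28, adjusted p = 0.0441). No Malat1 or Neat1 site was called for enrichment (0.259% of 32389 sites) or presence (0.0% of 37895, with 1178 at an unadjusted exact permutation p under 0.05). The site at nt 2095 to 2182 was present in 6 NT and 1 R6/2 libraries (exact permutation, adjusted p = 1.0), with an enrichment change of -0.22 ± 0.053 (limma, adjusted p = 0.131).

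Neat1 m6A did not pass the test for genotype, and the groups overlapped. In cortex it had between 7 and 11 enriched clusters in NT (median 7.5) and between 3 and 12 in R6/2 (median 9). In striatum the range was 9 to 23 in NT (median 12) and 5 to 16 in R6/2 (median 12). The changes were -0.13 ± 0.20 in cortex (log2, SE; limma, adjusted p = 0.774) and -0.21 ± 0.17 in striatum (adjusted p = 0.525). Without R62 male 3, which had 3 clusters, the cortex value was 0.07.

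**Figure D3:**
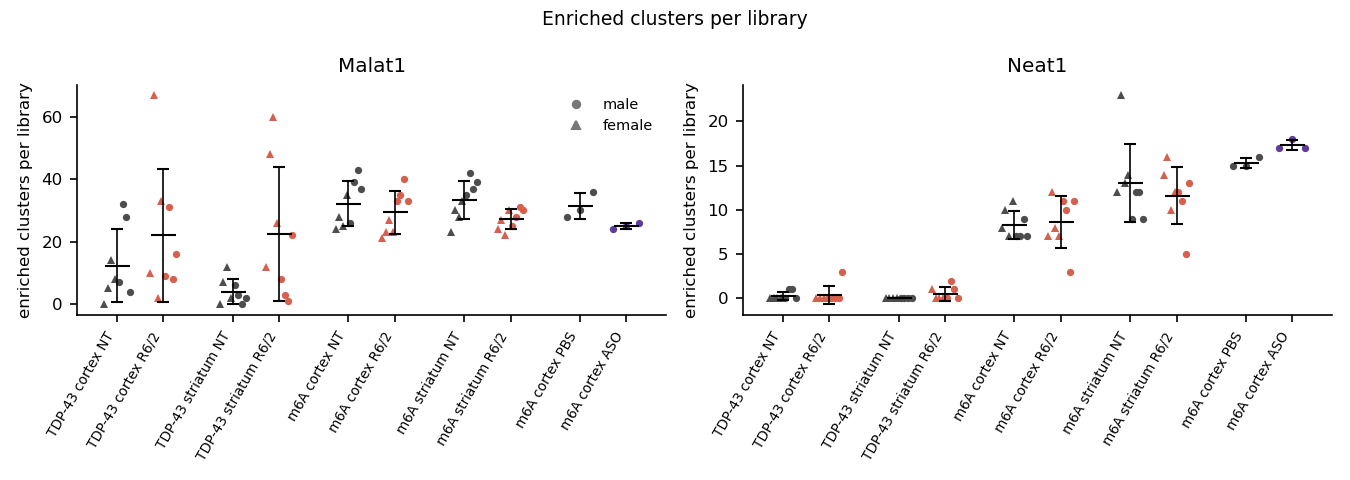
Enriched clusters per library (y axis) on Malat1 and Neat1 in each group (x axis), with males as circles and females as triangles and black bars for the mean and SD (n = 8, or 3 in the PBS and ASO groups). TDP-43 clusters on Malat1 range from 0 to 67 and on Neat1 from 0 to 3. m6A values range from 21 to 43 on Malat1 and from 3 to 23 on Neat1.

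Enriched TDP-43 clusters on Malat1 had a higher mean in R6/2 striatum, a difference that did not pass the test and whose highest values came from libraries with a high intronic share. NT males had 6, 3, 0 and 2 enriched clusters and NT females 0, 7, 12 and 2. R6/2 males had 8, 3, 1 and 22 and R6/2 females 12, 48, 60 and 26. The genotypes overlapped in males, and among females the highest NT library equalled the lowest R6/2 library.

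The change in striatum was 2.36 ± 0.85 (log2, SE), from normalized means of 4.88 ± 5.81 to 32.0 ± 36.8 (SD, n = 8 each), and did not pass the test (limma, adjusted p = 0.0767; 13.6% of 2333 genes called). The direction turned with all listed clusters, to -0.15 in the same fit (adjusted p = 0.204), and listed clusters covered 30.9% ± 2.55 of Malat1 in NT and 24.9% ± 4.96 in R6/2 (exact permutation, adjusted p = 0.0531). Without NT male 1 (2.87, adjusted p = 0.0181) or R62 male 3 (2.79, adjusted p = 0.0315) the enriched count passed the test, and in females alone it was 3.68 (adjusted p = 0.0245). With the intronic share of each library as a term in the fit, chosen after seeing the data, the change was -0.91 (adjusted p = 0.442). The 3 R6/2 libraries under 30% were all males, with 8, 3 and 1 enriched clusters, where NT males had 6, 3, 0 and 2. They averaged 4.0 against 4.0 in the 8 NT libraries of both sexes (exact permutation within sex, p = 1.0). With no R6/2 female left, only males could be permuted, and the equal means mix the sexes. The higher values were those of the libraries at 30% or more, and the part of the intronic share in them was not tested. Striatal markers had 30 to 77 enriched TDP-43 clusters per NT library and 19 to 35 per R6/2 library.

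In cortex the TDP-43 values on Malat1 had a lowest of 0, a median of 7.5 and a highest of 32 in NT and 2, 13 and 67 in R6/2. These overlapped, and the change of 1.23 ± 0.79 (log2, SE) did not pass the test (limma, adjusted p = 0.382, 7.1% of 3904 genes called). With the intronic share as a term it was -0.32 (adjusted p = 0.904). All listed clusters went the other way. They covered 40.3% ± 2.77 of Malat1 in NT and 35.2% ± 3.03 in R6/2 cortex (SD, n = 8 each). This difference passed its test (exact permutation within sex, adjusted over 26 tests p = 0.0354).

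**Figure D4:**
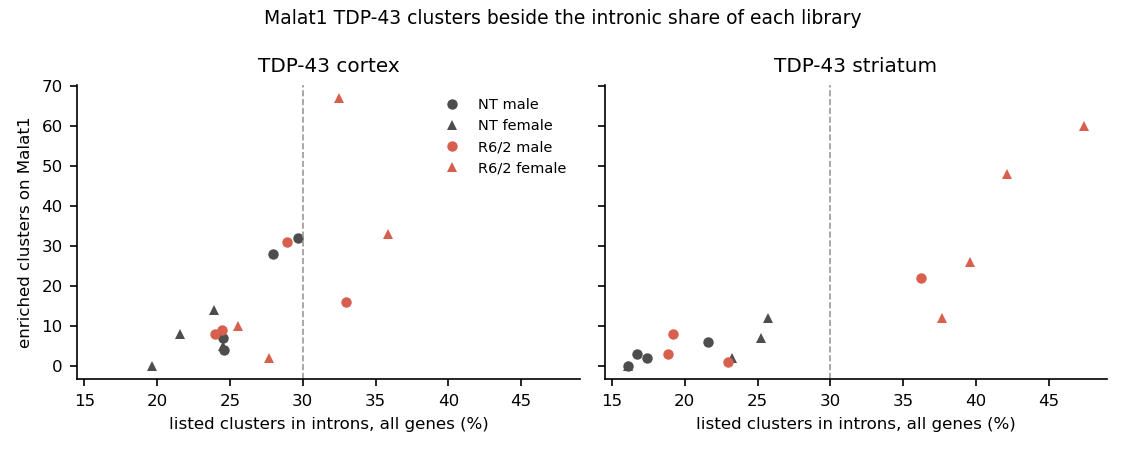
Enriched TDP-43 clusters on Malat1 (y axis) against the percent of all listed clusters that lie in introns (x axis), 1 point per library, NT grey and R6/2 red, males circles and females triangles, with a dashed line at 30%. In striatum the 5 R6/2 libraries right of the line have 12 to 60 clusters and the 3 left of it have 1 to 8.

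The TDP-43 clusters of R6/2 striatum also lay closer to the 5′ end of Malat1. The centre of the enriched bases was at nt 4614 ± 344 in the 6 NT libraries with an enriched cluster and at nt 3191 ± 802 in the 8 R6/2 libraries (exact permutation within sex, 1225 labelings, adjusted p = 0.0376). The first 2 kilobases held nearly none of it in NT: 0.0% and 0.63% of their bases lay under enriched clusters, against 8.71% and 18.0% in R6/2. The 3 R6/2 libraries of low intronic share, all males, had a centre at nt 3934. The difference from the 6 NT libraries of both sexes was -680 nt (exact permutation within sex, p = 0.05, the smallest p that 20 labelings allow). Only males could be permuted there. In cortex the centres were nt 3690 ± 425 (7 NT libraries) and nt 3439 ± 331 (8 R6/2 libraries), and the same test was not passed (exact permutation, adjusted p = 0.549).

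Of the 11 TDP-43 sites on Malat1 in striatum, all but nt 4848 to 4883 had enough values for the fit. Of these 1 was called, at nt 3575 to 3636 (chr19:5799037-5799098), where 1.07% of 15854 sites were called. Its IP over input, relative to the median site of each library, was -1.54, -3.40, -3.98 and -2.78 in NT males and -3.84, -2.69, -1.47 and -2.80 in NT females. It was -2.52, -2.31, -2.62 and -0.41 in R6/2 males and -1.15, -0.28, -0.79 and -0.58 in R6/2 females. All R6/2 females and R62 male 4 were above every NT library, and the other R6/2 males lay within the NT range.

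The means were -2.81 in NT and -1.33 in R6/2, a change of 1.48 ± 0.36 (log2, SE; limma, adjusted p = 0.036). The call rested on single libraries. It was lost without any of NT male 2 or 3, NT female 1, 2 or 4, R62 male 4 or R62 female 1, 2, 3 or 4, with changes of 1.27 to 1.5 and adjusted p between 0.054 and 0.0894. Without the libraries of 30% or more intronic clusters, which leaves only males in R6/2, the change was 0.44 (adjusted p = 0.857). With the intronic share as a term it was 0.0013 (adjusted p = 1.0).

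Other TDP-43 sites were more often present in R6/2 striatum with no call. The site at nt 3678 to 3749 was present in 2 NT and 8 R6/2 striatum libraries, with a change of 1.17 ± 0.33 (log2, SE; limma, adjusted p = 0.0619), and the site at nt 1516 to 1644 in 0 NT and 5 R6/2 libraries, with 1.23 ± 0.34 (adjusted p = 0.0589). The site at nt 4900 to 4970 was present in 5 NT and 7 R6/2 libraries, with 0.48 ± 0.35 (adjusted p = 0.561). In cortex the sites at nt 3669 to 3770 and nt 3566 to 3639 were present in 15 and 14 of 16 libraries, with changes of 0.72 ± 0.26 and 0.96 ± 0.30 (limma, adjusted p = 0.252 and 0.176), and no member site was called (0.171% of 29842).

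A short stretch ran the other way. The TDP-43 site at nt 4844 to 4888 was present in 7 NT and 2 R6/2 cortex libraries, and at nt 4848 to 4883 in 6 NT and 1 R6/2 striatum libraries. Both hold TGTGT and GTGTG in their windows. Neither was called for presence (exact permutation within sex, adjusted p = 1.0 and 0.788), with 0.0% of 37174 cortex and 0.0% of 18561 striatum sites called and 1577 and 1105 at an unadjusted p under 0.05. Too few libraries had a value there for the enrichment fit.

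No difference of the R6/2 effect on Malat1 or Neat1 between sexes, regions or assays was called when the difference itself was tested. TDP-43 minus m6A on Malat1 was 2.69 ± 0.92 in striatum (log2, SE; limma, adjusted p = 0.0748, 6.59% of genes called) and 1.48 ± 0.84 in cortex (adjusted p = 0.345, 2.63% called). Females minus males gave 2.72 ± 1.62 for TDP-43 in striatum (adjusted p = 0.531), and 0.0% of genes were called in each of the 4 tests of sex. Striatum minus cortex gave 1.13 ± 1.25 for TDP-43 (adjusted p = 0.856, 0.0883% called) and -0.08 ± 0.11 for m6A (adjusted p = 0.902, 0.261% called).

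m6A on Malat1 differed between male and female libraries, a comparison chosen after seeing the data. Over both genotypes females had fewer enriched clusters, by -0.32 ± 0.078 in cortex (log2, SE; limma, adjusted p = 0.0122, 9.36% of genes called) and by -0.49 ± 0.076 in striatum (adjusted p = 0.000141, 20.6% called). The labels give no batch, so sex and any batch that followed sex cannot be told apart. Neat1 did not pass this test, with 0.29 ± 0.20 in cortex (adjusted p = 0.389) and 0.25 ± 0.17 in striatum (adjusted p = 0.332).

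Some sites were seen mostly or only in libraries of a single sex. The cortex site at nt 814 to 975 was present in 8 of 8 female and 0 of 8 male libraries, and the site at nt 2904 to 2978 in 8 of 8 male and 2 of 8 female libraries. The sites at nt 4811 to 4852 and nt 3833 to 3859 were each present in 7 male and 0 female libraries. Sites in 7 or more libraries of a sex and none of the other were 3 of 16 on Malat1 and Neat1 and 0.72% of all 37895 cortex sites, a count with no test. The first 2 sites are printed here as the female one and the one most often seen in males, at chr19:5801698-5801859 and chr19:5799695-5799769 on the minus strand (mm10), with GGAC in capitals.
Malat1 m6A site of female cortex libraries, nt 814 to 975: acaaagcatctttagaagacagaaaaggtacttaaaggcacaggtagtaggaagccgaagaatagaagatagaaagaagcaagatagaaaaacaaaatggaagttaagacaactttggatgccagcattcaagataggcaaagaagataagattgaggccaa
Malat1 m6A site of male cortex libraries, nt 2904 to 2978: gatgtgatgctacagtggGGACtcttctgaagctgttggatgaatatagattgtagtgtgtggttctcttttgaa

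Enrichment differed by sex at some of the sites. IP over input at nt 814 to 975 was higher in females by 0.80 ± 0.071 (log2, SE; limma, adjusted p = 1.99e-05, 10.7% of 31844 cortex sites called). At nt 3546 to 3694, the site that holds the called TDP-43 site, it was higher in females by 0.73 ± 0.10 in cortex, from -0.77 in males to -0.04 in females. The striatum site at nt 3545 to 3695 was higher in females by 0.49 ± 0.090 (19.7% of 33440 striatum sites called). On Neat1 the site at nt 2024 to 2191 was higher in females by 0.37 ± 0.092 in cortex, and the site at nt 1354 to 1886 changed by -0.23 ± 0.063 in striatum. The site at nt 2904 to 2978, seen mostly in males, was not called, with -0.13 ± 0.070 (limma, adjusted p = 0.244), nor was nt 1054 to 1554, with 0.08 ± 0.055 (adjusted p = 0.358). The sites at nt 4811 to 4852 and nt 3833 to 3859 had too few values for the fit.

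**Figure D5:**
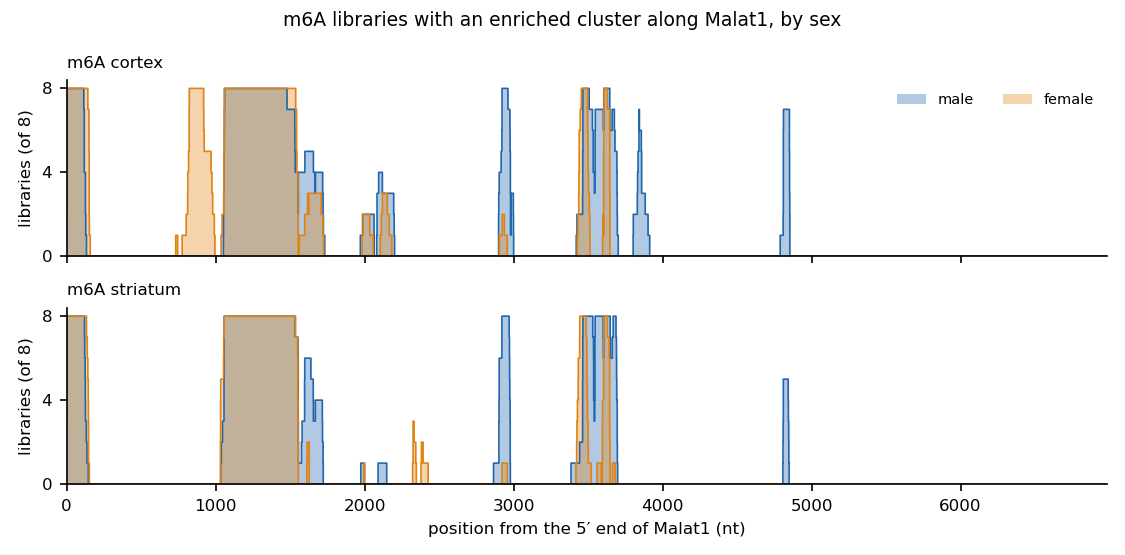
Number of m6A libraries (y axis, of 8 per sex, both genotypes together) with an enriched cluster at each position of Malat1 (x axis, nt from the 5′ end), males blue and females orange. The blocks at the 5′ end, in the second kilobase and near nt 3500 are shared, the cortex block at nt 814 to 975 is female, and the blocks at nt 2904 to 2978 and nt 4811 to 4852 are mostly or only male.

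In the ASO experiment the target transcript Tardbp, which encodes TDP-43, had 18, 17 and 25 enriched m6A clusters after PBS and 7, 8 and 9 after the ASO. The change was -1.12 ± 0.14 (log2, SE; limma, adjusted p = 0.00371, 30.2% of 10149 genes called). Each PBS library listed 27 clusters on Tardbp and each ASO library 12. Within a treatment 98.9% of the listed intervals were shared by all 3 libraries, so the lists bound the enriched counts and the number listed had almost no spread of its own. The TDP-43 protein was not measured in these files.

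Neat1 had 15, 15 and 16 enriched m6A clusters after PBS and 17, 18 and 17 after the ASO, with no overlap. The change was 0.31 ± 0.036 (log2, SE; limma, adjusted p = 0.00311). Each PBS library listed 18 clusters on Neat1 and each ASO library 21, and the same limit holds. The bases under enriched clusters were 4.90% ± 0.13 and 4.91% ± 0.11 of the gene (SD, n = 3 each; exact permutation over 20 labelings, p = 0.6, smallest possible 0.1). The Neat1 site at nt 1349 to 1897 changed by 0.02 ± 0.13 in IP over input (limma, adjusted p = 0.976).

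Malat1 had 28, 30 and 36 enriched m6A clusters after PBS and 24, 25 and 26 after the ASO, without overlap. The change was -0.17 ± 0.070 (log2, SE; limma, adjusted p = 0.121), and without PBS 1 it was -0.24 (adjusted p = 0.0413). Each PBS library listed 41 clusters and each ASO library 37. The mean log2 fold of these was 1.34 ± 0.12 after PBS and 1.09 ± 0.028 after the ASO (exact permutation, p = 0.1, the smallest possible). In the ASO experiment none of the 6 Malat1 and 5 Neat1 sites was called for enrichment (0.0527% of 30376) or presence (0.0% of 31142, none at an unadjusted exact permutation p under 0.05, which 3 against 3 cannot reach). The largest site change was -0.50 ± 0.29 at nt 695 to 804 of Malat1 (limma, adjusted p = 0.628).

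The transcripts of paraspeckle proteins form a list of 18 genes, of which 0 to 4 were called in the same fits. For TDP-43, 13 were tested in cortex and 1 rose (7.1% of all genes called, 57 of 3904 higher), Pspc1, a core paraspeckle protein (0.94 ± 0.22, log2, SE; limma, adjusted p = 0.0152). In striatum 10 were tested and 2 rose (13.6% of all genes called, 138 of 2333 higher), Sfpq, a core paraspeckle protein (2.07 ± 0.55, adjusted p = 0.0187), and Ewsr1, an RNA-binding protein (1.13 ± 0.34, adjusted p = 0.0305). The median change over the list was 0.57 in striatum and over all genes -0.05. The fit with the intronic share (10 tested) called none, with 89 of all 2333 genes called. The fit leaving out libraries of 30% or more (9 tested) called none, with 27 of all 2532 genes called. No member changed for m6A among 8 tested in cortex and 11 in striatum. In the ASO experiment 4 of 11 were called (30.2% of all genes called), with Pspc1 higher (0.84 ± 0.16) and Hnrnpr (-0.60 ± 0.077), Matr3 (-0.73 ± 0.15) and Tardbp lower, a list median of -0.28 against -0.02 for all genes. The limit of intervals shared within a treatment holds for all these ASO calls. Pspc1 went from a normalized mean of 0.95 enriched clusters after PBS to 2.10 after the ASO.

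Other long noncoding RNAs of brain, a list of 14 genes, included 3 that rose for TDP-43 in R6/2 striatum. Of 7 tested there (13.6% of all genes called, 138 of 2333 higher), the called ones were Snhg11 (2.70 ± 0.45, log2, SE; limma, adjusted p = 0.000809), the imprinted Meg3 (2.45 ± 0.64, adjusted p = 0.016) and its neighbour Rian (1.13 ± 0.33, adjusted p = 0.0276), with a list median of 1.27 against -0.05 for all genes. With the intronic share as a term 1 was called, Snhg11 (2.86 ± 0.68, adjusted p = 0.0298), where 89 of all 2333 genes were called. With the libraries of 30% or more left out, none of 6 was called, and 27 of all 2532 genes were. Calls were thus fewer over all genes in both fits. None of 7 was called for TDP-43 in cortex and none of 10 for m6A in cortex. For m6A, Pantr1 fell in R6/2 striatum (-0.92 ± 0.24, adjusted p = 0.0149), the only call among 10 tested (9.64% of all genes called). After the ASO Kcnq1ot1 (-0.82 ± 0.11) and Rian (-0.33 ± 0.028) fell among 9 tested (30.2% of all genes called, 1702 of 10149 lower). Intervals shared within a treatment limit the spread behind the ASO calls here too.

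The genes whose enriched clusters followed Malat1 most closely over the 64 libraries of the R6/2 series, after the mean of each assay and region was taken off, were Meg3 (Pearson r = 0.80), Hnrnpa2b1 (0.77) and Snrnp70 (0.77), among 1857 genes. For Neat1, over the 32 m6A libraries and 8827 genes, they were Xpnpep1 (0.72), Ephx4 (0.62) and AC165951.1 (0.62). The points share libraries and their size factors, and these values are a description.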

How the data were processed

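The authors called clusters with CLIPper on mm10 and set each against its matched input. The deposited lists hold a −log10 p-value and a log2 fold of IP over input per cluster, with no reads and no gene names. Clusters were assigned to GENCODE vM21 genes by midpoint and strand. For each gene, counts of enriched clusters were scaled by size factors (median of ratios), 0.5 was added, and the log2 values entered limma 3.58.1 (R 4.3.3, two-sided, moderated with a mean trend) with sex as a covariate. A gene needed 2 enriched clusters in 50% of libraries. Site values, the length-weighted log2 fold of listed clusters, were centred on each library's median and fitted likewise where 6 of 8 libraries per genotype (all 6 in the ASO experiment) had one. Adjustment was Benjamini-Hochberg over all genes or sites, with calls under 0.05. For values of single libraries, genotypes were permuted within each sex over all labelings. The labels do not say whether libraries came from separate animals, and p-values then measure only the spread between libraries. In simulated data 96.5 to 98.5% of 4-fold changed genes were recovered in the R6/2 comparisons and 52% in the ASO experiment. The changed genes had means above the median, and libraries were simulated as independent. The simulated counts spread less than Malat1 TDP-43 in striatum, whose SD exceeded its mean in both genotypes. These shares therefore do not apply to that value. The members, gene lists and tests were chosen with earlier results of these data known. Named were Tardbp, the 3 genes closest to each member, called genes of the lists, called sites and the 3 sites per assay present in most libraries. The other sites were chosen after their values were seen.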

Additional observations from a re-analysis of the deposited data

Results flagged for a closer look

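In groups of 4 libraries, 6 values on Malat1 or Neat1 lay far from the other 3 libraries of their group. They came from 64 groups, and chance gives about 1 in 20 for continuous values. That rate does not hold for small counts whose other libraries tie, as at 7 or at 0 below. On Neat1, NT male 3 of m6A cortex had 9 enriched clusters where the others had 7, and R62 male 3 had 3 where the others had 10 to 11. For TDP-43 on Neat1, R62 male 4 of cortex had 3 enriched clusters and R62 female 1 of striatum had 1, where the others of each group had 0. The mean log2 fold of listed m6A clusters was 0.91 on Malat1 in NT male 4 of striatum, with 0.96 to 0.97 in the others. It was 1.15 on Neat1 in NT female 3 of cortex, with 1.53 to 1.60 in the others.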

How the results depend on the processing

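Of 402 alternative values, 319 kept their direction and side of the threshold. 11 used a setting chosen after seeing the data. Changes are log2 unless stated, and the cause was not tested where a value moved. Read depth was not used here, which limits every count of clusters.

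With all listed clusters Malat1 TDP-43 was -0.22 in cortex and -0.15 in striatum, and Neat1 m6A in cortex 0.0093. With the intronic share as a term Malat1 TDP-43 was -0.32 and -0.91, and 0 sites were called in striatum, as without the libraries of high intronic share (0). In striatum Malat1 TDP-43 was 1.52 with 4 added (limma, adjusted p = 0.0428) and 3.68 in females alone. Same-numbered libraries were not paired by the labels, and their deviations correlated between -0.44 and 0.41, with 4 of 8 pairs above 0.1 in TDP-43 striatum and none elsewhere. With a replicate block Malat1 TDP-43 in striatum was 2.36 (limma, adjusted p = 0.0249) and 8 sites were called. The site count was 5 without centring and 2 with sites of at least 50% of libraries. Site counts in this section are of Malat1 TDP-43 sites in striatum, where the main fit called 1 (1.07% of all 15854 sites called). The share of all sites called under each setting is not given, so these counts cannot be set against it.

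Malat1 m6A was -0.24 in cortex with quantile normalization (limma, adjusted p = 0.0193). In striatum it was 0.032 under the study thresholds (p of 0.001 and log2 fold of 3), by which every male library had 5 clusters and every female library 0, so that no genotype change could show, and it was -0.28 without size factors (adjusted p = 0.063), -0.33 without the sex term and -0.28 in females alone. Under the study thresholds Neat1 m6A was 0.11 in striatum and -0.55 in the ASO experiment, where bases under enriched clusters gave -0.0012.

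Leaving out 1 library gave 1.85 to 2.87 for Malat1 TDP-43 in striatum, 0.70 to 1.63 in cortex, 0 to 9 called sites in striatum, -0.31 to -0.21 for Malat1 m6A in cortex, -0.38 to -0.29 in striatum and -0.24 to -0.11 in the ASO experiment. It gave -0.21 to 0.072 for Neat1 m6A in cortex, -0.29 to -0.07 in striatum and 0.30 to 0.32 in the ASO experiment. The site count was 9 without NT male 1, 5 without R62 male 3, and 2 without NT male 4 or R62 male 1.

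Of the library values, 4 tests were called with all listed clusters and 0 under the study thresholds, against 1 with enriched clusters, and 4 tests of cortex against striatum were called with all listed clusters. With all listed clusters R6/2 minus NT for Malat1 TDP-43 was -7.25 clusters and -5.09 percentage points of bases in cortex. The latter was called (exact permutation, adjusted p = 0.0354), and striatum gave -5.99 points. For Malat1 m6A it was 0.068 points in cortex, and 17.7 nt for the m6A centre in striatum. Under the study thresholds that centre moved by 0.25 nt, and the Neat1 m6A centre by 29.2 nt in cortex and -8.78 nt in striatum. There the ASO difference on Neat1 was -0.333 clusters and -0.0786 points. TDP-43 minus m6A on Malat1 with all listed clusters was 43.1 clusters and 13.1 points in cortex and 19.5 clusters and 2.82 points in striatum. Striatum minus cortex with all listed clusters was -270 nt for the Malat1 TDP-43 centre, 2.19 clusters and 0.41 points for Malat1 m6A (0.060 points under the study thresholds) and -0.0129 points for Neat1 TDP-43. Without the libraries of high intronic share, which leaves only males in R6/2, the Malat1 TDP-43 centre in striatum moved by -680 nt (exact permutation, p = 0.05).

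Under the study thresholds no TDP-43 cluster on Malat1 was left in any of the 16 cortex and 16 striatum libraries, so Malat1 TDP-43 failed the filter. The fit of all listed clusters was not run in the ASO experiment, where the 3 libraries of a treatment listed equal numbers for all but 438 of 23532 genes (PBS) and 442 of 23796 genes (ASO).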
